A study of Mus musculus with 3 samples.

Results

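The Bcl2 family survival genes measured here were 9 of the 32285 genes in the count tables, chosen by name from the family that sets whether a leukocyte lives or dies. They were Bcl2, Bcl2l1, Mcl1, Bcl2a1b and Bcl2a1d, which protect cells, Bax and Bak1, which kill them, and Bid and Bcl2l11, which start the process. PB (peripheral blood) was taken from wild type Balb/C mice that were naive, or that had been engrafted with BBC2 cells and were bled at D11 or D14. The engrafted mice were young adult females per the study's methods, which do not state the age or sex of the naive mice. Red cells were lysed and dead cells removed before scRNA-Seq. BBC2 is 1 transplantable cell line, made by putting the fusion kinase BCR-FGFR1 into stem cells, which grows as the pro-B type leukemia of the stem cell leukemia and lymphoma syndrome (SCLL). The hosts keep their own immune system.

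There was 1 library for each of naive, D11 and D14. The number of mice in each is not given in the sources used here, and differences between libraries could not be tested against replicates. Counts are unique molecular identifiers (UMIs, each a captured mRNA molecule) summed over the barcodes of a cell class in a library and scaled to CPM, the counts per 1e+06 UMIs of that sum. Brackets hold exact 95% intervals for counting error only. Classes were rebuilt from fixed markers and carry the ending "-like". Erythroid-like barcodes were present in all 3 libraries in spite of the lysis, and pro-B-like barcodes, the type of the engrafted line, numbered 2 in the naive library, 98 in D11 and 673 in D14. B-like barcodes numbered 403, 267 and 44 in that order, so that B-like cells at D14 and pro-B-like cells in the naive library fell under the minimum of 50 barcodes. Compared leukocyte sums ranged from 339874 UMIs (NK-like at D14, 51 barcodes) to 21650718 UMIs (pro-B-like at D14). Hemoglobin took 11.2%, 55.9% and 22.5% of all UMIs of the naive, D11 and D14 libraries, and pairs of libraries shared 12 to 18 barcode sequences.

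Proteins of this family meet at the mitochondrial outer membrane. Bax and Bak1 open the membrane and release cytochrome c, the anti-apoptotic members bind and restrain them, and BH3-only proteins such as Bim (the product of Bcl2l11) and Bid neutralise the restraining members or activate the openers. Blood cell types are known to lean on different anti-apoptotic members: lymphocytes on Bcl2, neutrophils on the short-lived Mcl1, red cell precursors on Bcl-xL (the product of Bcl2l1), and activated leukocytes on A1 (the product of the Bcl2a1 genes).

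The A1 genes are the members most easily confused with each other, so their sequences are shown first. On GRCm38, Bcl2a1d lies on chromosome 9 from 88723285 to 88731914 on the minus strand and Bcl2a1b from 89199209 to 89207827 on the plus strand, with another copy, Bcl2a1a, between them from 88956900 to 88962419 on the plus strand. The coding sequences of all 3, each 519 bases long in GENCODE vM21, differed from each other at 12 positions in all. Bcl2a1b and Bcl2a1d had 98.8% identity. The first 60 coding bases, which hold 6 of the differing positions, are given with those positions in capitals.
Bcl2a1b: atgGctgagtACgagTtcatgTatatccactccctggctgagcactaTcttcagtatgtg
Bcl2a1d: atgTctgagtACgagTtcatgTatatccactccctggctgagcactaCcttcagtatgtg
Bcl2a1a: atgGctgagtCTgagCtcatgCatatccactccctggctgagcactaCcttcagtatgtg

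A window of 90 bases was used to ask how often a read could come from more than 1 copy. Of the windows of the Bcl2a1b transcript, 36.1% were also in another copy, and of those of Bcl2a1d, 61.6%. In the last 300 bases, where a 3′ assay reads, 50.2% of the Bcl2a1d windows occurred in Bcl2a1b and 39.8% in Bcl2a1a. Of the Bcl2a1b windows there, 50.2% occurred in Bcl2a1d and 0.474% in Bcl2a1a. Values of single copies are therefore uncertain. The summed value of the 3 is given for whole classes in which a single copy is compared with the naive library, but not for subclasses. It adds the UMIs assigned to each copy, and how reads from shared windows were counted was not tested.

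The copies also resemble each other before the start site, which is shown because their ratios over naive differed in ncMono-like cells. The 100 bases that end 22 bases after the string GAGGAAGT, in capitals, are in RefSeq (GRCm38.p6) at chr9:89199055-89199154 on the plus strand for Bcl2a1b and at chr9:88731925-88732024 on the minus strand for Bcl2a1d.
Bcl2a1b: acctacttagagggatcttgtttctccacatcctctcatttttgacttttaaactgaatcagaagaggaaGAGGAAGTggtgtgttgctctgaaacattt
Bcl2a1d: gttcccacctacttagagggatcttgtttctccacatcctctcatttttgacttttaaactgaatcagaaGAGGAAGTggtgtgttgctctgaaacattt

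GAGGAAGT contains GGAA, the core that ETS factors bind, and was searched on both strands after the promoters had been read. It was present in 3.20% of 32851 promoter windows of 300 bases and, among the 9 members, in Bcl2a1b, Bcl2a1d and Bak1. The Bcl2a1a window was identical to that of Bcl2a1b over the 100 bases. Over the promoter windows Bcl2a1b and Bcl2a1d aligned with 96.5% identity, with 3 mismatches and 6 gaps. Directly before the marked string Bcl2a1b has the bases gaggaa, which hold another GGAA, and Bcl2a1d does not. A match describes the letters only.

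Of the remaining members, Bcl2 spans 176 kb on chromosome 1 (106538178 to 106714274), Mcl1 4.39 kb on chromosome 3 (95658788 to 95663176), and Bcl2l11 and Bcl2l1 both lie on chromosome 2 (128126038 to 128162547 and 152780668 to 152831728). Bid is on chromosome 6 (120891930 to 120916853), Bax on chromosome 7 (45461697 to 45466898) and Bak1 on chromosome 17 (27019810 to 27029009).

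Bcl2, the founding survival gene of the family, was a lymphocyte and ncMono gene in these libraries. T-like cells held 872 CPM in the naive library, 571 in D11 and 498 in D14. NK-like cells went the other way, with 650.1, 726 and 1286 CPM. The first place in the order of classes thus passed from T-like in the naive library to NK-like at D11 and D14, with intervals that did not overlap. B-like cells held 484 and 449 CPM in the naive and D11 libraries. ncMono-like cells (non-classical monocytes, the Ly6C-low patrolling subset) held 339.7, 449.6 and 537 CPM. Over the compared libraries the range of NK-like cells overlapped that of T-like cells and the range of B-like cells that of ncMono-like cells. The range of ncMono-like cells also overlapped that of T-like cells. T-like and B-like cells did not overlap, with B-like cells from the naive and D11 libraries only. B-like cells at D14, 44 barcodes and so not compared, were at 608 CPM [529 to 697], within the T-like range. In that library T-like cells were lower, at 498 CPM [454 to 545], with intervals that overlapped.

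At the bottom of the order for Bcl2, cMono-like cells (classical monocytes, the Ly6C-high inflammatory subset) held 8.12, 10.2 and 23.6 CPM, neutrophil-like cells 12.1, 6.35 and 9.18, and erythroid-like cells at most 4.04. The pro-B-like cells were also low, with 42.6 CPM in D11 and 55.6 in D14. Without ribosomal, mitochondrial and hemoglobin UMIs in the denominator, erythroid-like cells were not last at D11 and D14, at 51.5 and 42.2 CPM. On that scale cMono-like cells held 12.2 and 29.3 CPM and neutrophil-like cells 6.57 and 9.54. Naive erythroid-like cells, 54 barcodes, had no Bcl2 UMI.

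The share of cells with a Bcl2 UMI was lower at D11 and D14 than in the naive library in T-like cells and highest at D14 in NK-like cells. With each barcode thinned to 1000 UMIs, 43.2% [40.4 to 45.9] of 1286 naive T-like cells had one, 28.4% [23.0 to 34.2] of 268 at D11 and 21.6% [14.4 to 30.4] of 111 at D14. Before thinning these shares were 78.5%, 48.9% and 48.6%. In NK-like cells the thinned share was 38.9% [31.9 to 46.1], 41.1% [34.0 to 48.4] and 64.7% [50.1 to 77.6]. Neutrophil-like cells, which have little Bcl2, gave a background of 1.09%, 0.851% and 0.615% at the same depth.

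Mcl1, which encodes a survival protein with a very short half-life, was highest in neutrophil-like cells in every library, at 1458 CPM in the naive library, 1690.0 in D11 and 1209 in D14. cMono-like cells followed with 686, 791 and 559 CPM and ncMono-like cells with 553, 782 and 660.5, and these ranges overlapped each other but not that of neutrophil-like cells. Lymphocytes were lower, at 376 and 416 CPM in B-like cells, 318, 288 and 262 in T-like cells and 246, 228 and 244 in NK-like cells. Pro-B-like cells held 157 and 185 CPM and erythroid-like cells 5.05 to 14.1. Without ribosomal, mitochondrial and hemoglobin UMIs erythroid-like cells held 117, 64.6 and 148 CPM, still under pro-B-like cells at 197 and 232. In all 3 leukocyte classes of myeloid type the D11 library was the highest of the 3, by 0.21, 0.20 and 0.50 on the log2 scale over naive in neutrophil-like, cMono-like and ncMono-like cells.

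Bcl2l1, the gene of Bcl-xL, was highest in erythroid-like cells in every library on the CPM scale. Erythroid-like cells held 122 CPM [93.8 to 157] in the naive library, 102 in D11 and 99.6 in D14, although hemoglobin took 89.4% to 91.3% of their UMIs. Without ribosomal, mitochondrial and hemoglobin UMIs in the denominator these became 1456, 1301 and 1041 CPM. Second place went to NK-like cells in the naive library (36.1 CPM), pro-B-like cells at D11 (46.7) and neutrophil-like cells at D14 (47.4 [42.0 to 53.3]). Pro-B-like cells held 45.7 CPM [42.9 to 48.6] at D14. Per barcode they had more Bcl2l1 than erythroid-like cells, 1.52 UMIs against 1.13 at D11 and 1.47 against 0.599 at D14. Their barcodes were deeper, with medians of 30985.5 and 31482 UMIs against 11213 and 6063.5. B-like cells were at 6.72 and 13.4 CPM in the naive and D11 libraries. NK-like cells held 36.1, 41.8 and 29.4 CPM, and the ranges of the remaining classes overlapped their neighbours in the order.

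**Figure D1:**
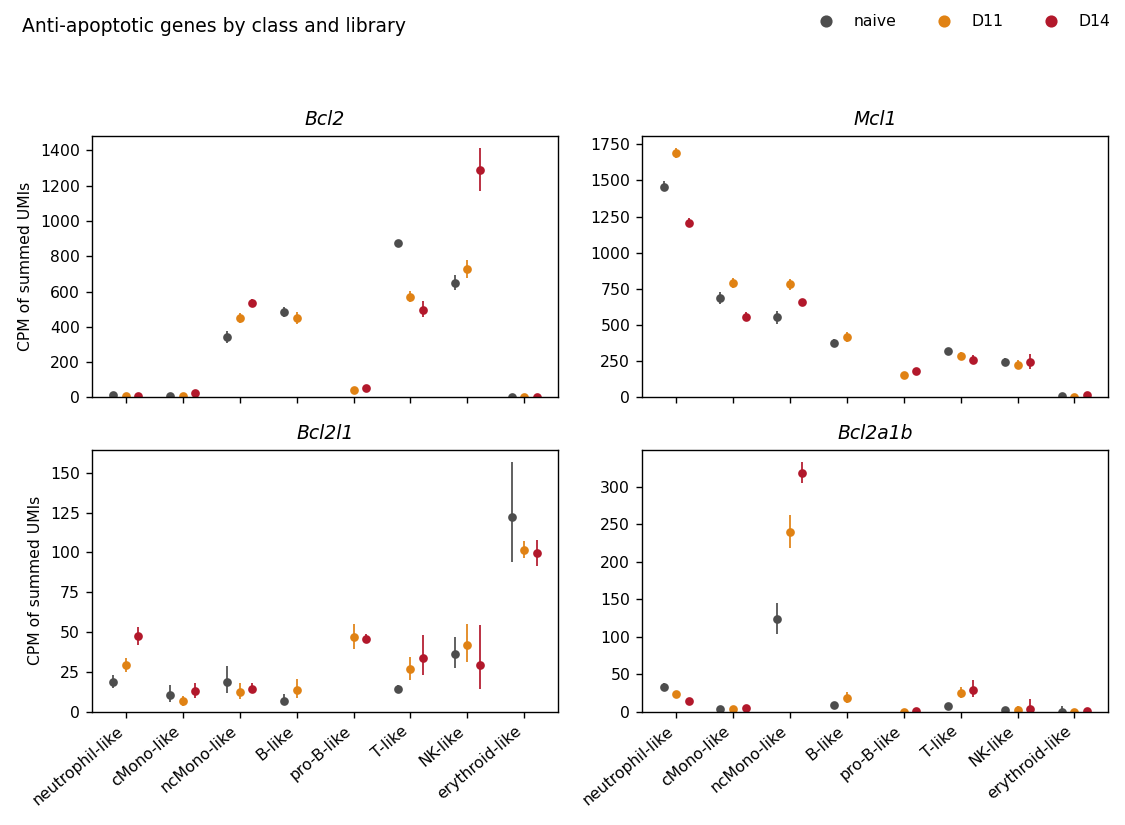
CPM of summed UMIs (vertical axis, linear from 0) of Bcl2, Mcl1, Bcl2l1 and Bcl2a1b in each class (horizontal axis) for the naive, D11 and D14 libraries. Points are 1 library each and bars are exact 95% Poisson intervals, and each gene peaks in its own class: Bcl2 in T-like or NK-like cells, Mcl1 in neutrophil-like cells, Bcl2l1 in erythroid-like cells and Bcl2a1b in ncMono-like cells.

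Bcl2a1b and Bcl2a1d were ncMono genes. Bcl2a1b stood at 123 CPM in naive ncMono-like cells, 239.5 in D11 and 319 in D14, and in no other class above 32.5. Bcl2a1d read 181, 211 and 199 CPM there and in no other class above 6.36. T-like cells had 6.99, 24.9 and 28.6 CPM of Bcl2a1b, and neutrophil-like cells had 32.5, 22.9 and 14.4. Both genes were close to absent from pro-B-like cells, with no UMI of either among 3191815 at D11, where 3 UMIs would be 0.940 CPM, and with 2 and 1 UMIs at D14.

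The effectors Bax and Bak1 had their highest levels outside the T-like, B-like and NK-like classes. Bax was highest in pro-B-like cells (131 and 96.1 CPM), cMono-like cells (103, 111 and 109.6) and ncMono-like cells (99.9, 118 and 88.7), 3 classes whose ranges overlapped. It was lowest among leukocytes in neutrophil-like cells, at 17.6, 10.7 and 7.65 CPM. Bak1 was highest in ncMono-like cells (41.0, 76.1 and 69.9 CPM) and cMono-like cells (29.6, 45.2 and 72.1), which overlapped. In the naive library NK-like cells, at 31.0 CPM, stood above cMono-like cells, with an interval that overlapped that of ncMono-like cells. Bid, whose protein links death receptors to mitochondria, was highest in the class that had most Mcl1, neutrophil-like cells, at 77.7, 65.5 and 48.3 CPM.

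Bcl2l11 was high in NK-like cells, at 182, 172 and 453 CPM, and in neutrophil-like cells, at 178, 147 and 87.5. T-like cells stayed at 89.7, 88.3 and 90.1 CPM. Neutrophil-like cells thus had the most Mcl1 and Bid of any class with the least Bax of any leukocyte class, in every library.

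**Figure D2:**
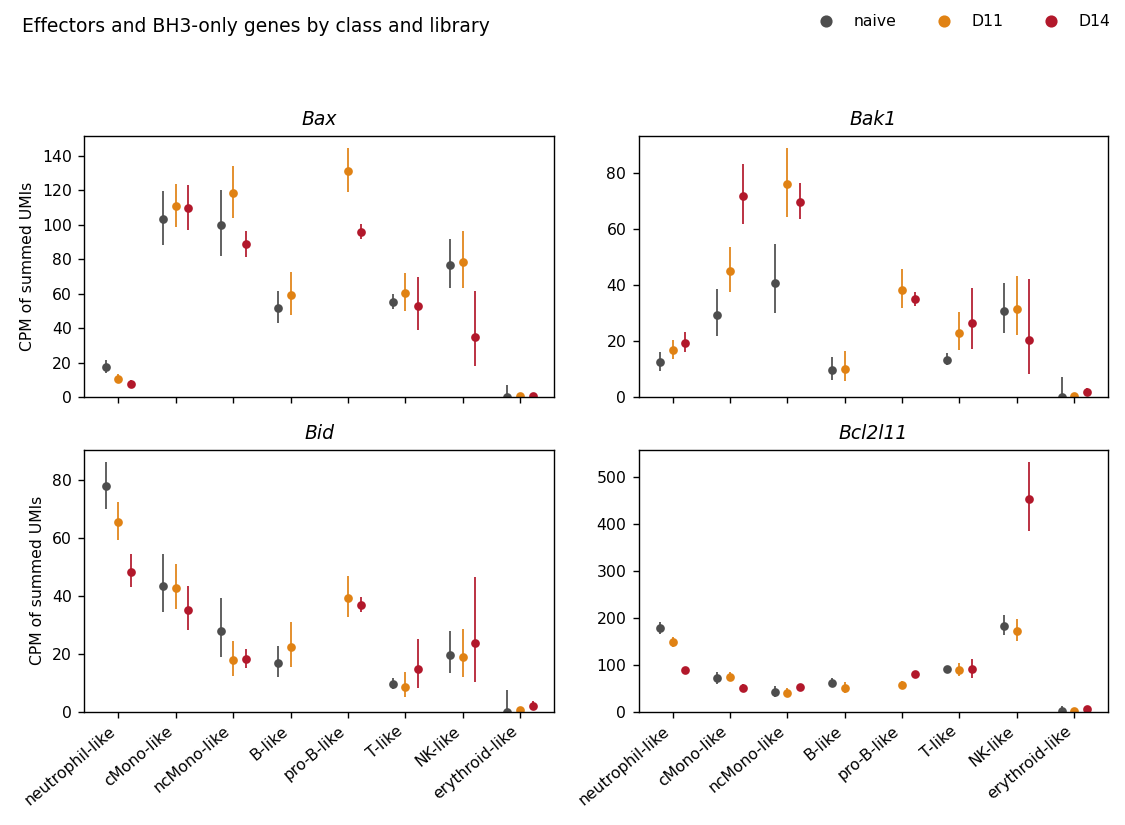
CPM of summed UMIs (vertical axis, linear from 0) of the effectors Bax and Bak1 and of the BH3-only genes Bid and Bcl2l11 by class and library, with exact 95% Poisson intervals. Of the leukocyte classes, neutrophil-like cells have the least Bax, while Bid peaks there. Bcl2l11 in NK-like cells is 453 CPM at D14 against 182 in the naive library.

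The monocyte classes of a library were set against each other for the A1 genes and Bcl2. ncMono-like cells exceeded cMono-like cells in Bcl2 by log2 ratios of 5.39 [4.62 to 6.27] in the naive library, 5.47 [4.93 to 6.05] in D11 and 4.51 [4.14 to 4.90] in D14. For Bcl2a1b the ratios were 5.14 [3.99 to 6.62], 6.09 [5.20 to 7.16] and 6.20 [5.36 to 7.21]. For Bcl2a1d they were 4.96, 5.32 and 4.98. The 3 A1 copies summed to 400.4, 624 and 749.8 CPM in ncMono-like cells and to at most 21.7 in cMono-like cells. These 3 members were at least 2-fold higher in ncMono-like cells in all 3 libraries, with intervals that excluded 1, and 1 member, Bid, was lower at D11 (log2 ratio -1.28 [-1.85 to -0.73]).

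Of all genes past the minimum mean of 20 CPM, 19.1%, 14.0% and 21.1% passed the same limits in these comparisons, against 3 of 8, 4 of 8 and 3 of 8 members. The log2 ratios of Mcl1 ran from -0.31 to 0.24 over the libraries and those of Bax from -0.31 to 0.09. Of the other genes of the pathway, Bcl2a1a, Pmaip1 (the BH3-only protein Noxa), Htra2 (a mitochondrial protease) and Bmf (a BH3-only gene) were higher in ncMono-like cells in all 3 libraries, and Bad (a BH3-only gene) was lower in all 3. The 8 cMono markers summed to 436, 506 and 376 CPM in ncMono-like cells, against 6006 to 7467 in cMono-like cells. Classes were gated on these markers, so that a difference in this direction was set in advance.

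**Figure D3:**
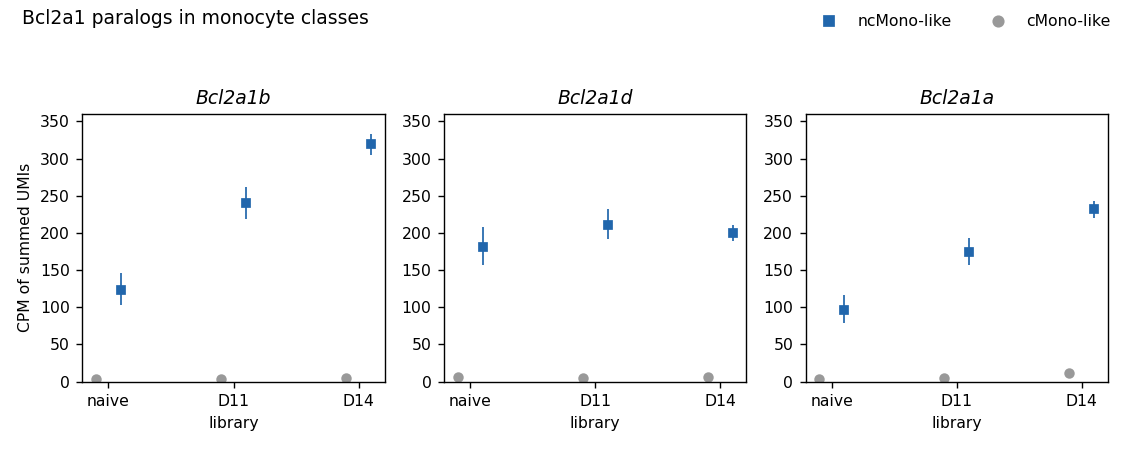
CPM of summed UMIs (vertical axis, linear from 0) of Bcl2a1b, Bcl2a1d and their copy Bcl2a1a in ncMono-like and cMono-like cells of each library (horizontal axis), with exact 95% Poisson intervals. In ncMono-like cells Bcl2a1b and Bcl2a1a are higher at D11 and D14 than in the naive library while Bcl2a1d stays between 181 and 211 CPM, and cMono-like cells lie near 0.

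From naive to D11 no member with a mean of at least 20 CPM moved by 2-fold in any class. A change was called where a member's mean over the compared libraries reached that minimum, its ratio was at least 2-fold and its interval excluded 1. Of 34 pairs of a member and a class past the minimum, 0 were called. Over all genes past the minimum the same rule called 3.07% in neutrophil-like, 1.68% in cMono-like, 3.36% in ncMono-like, 1.56% in B-like, 4.23% in T-like, 1.53% in NK-like and 15.4% in erythroid-like cells. The nearest were Bcl2a1b in ncMono-like cells (1.95-fold [1.61 to 2.37]), Bak1 in the same class (1.85-fold [1.33 to 2.64]) and Bcl2l1 in T-like cells (1.85-fold [1.33 to 2.52]). Bcl2 in T-like cells was 0.655-fold [0.616 to 0.696]. The 3 A1 copies summed, which are not counted among the pairs, did pass 2-fold in T-like cells at D11. They were at 31.4 CPM against 9.32 in the naive library, a log2 ratio of 1.75 [1.28 to 2.21]. Bcl2a1b alone was there at 24.9 and 6.99 CPM, under the minimum mean. The sum gave 0.64 [0.48 to 0.80] in ncMono-like and -0.64 [-0.91 to -0.36] in neutrophil-like cells.

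At D14, 8 of 31 pairs were called, 5 higher and 3 lower than in the naive library. They fell in 5 classes, and each class is described below with the share of all genes called there. In erythroid-like cells only 1 member, Bcl2l1, was past the minimum, at D11 and at D14. It was not called at either day, where 15.4% of 331 and 20.9% of 344 genes were. There Bcl2l1 gave a log2 ratio of -0.27 [-0.63 to 0.12] in D11 and -0.30 [-0.68 to 0.11] in D14, and the D11 direction turned with TMM factors (1.35).

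**Figure D4:**
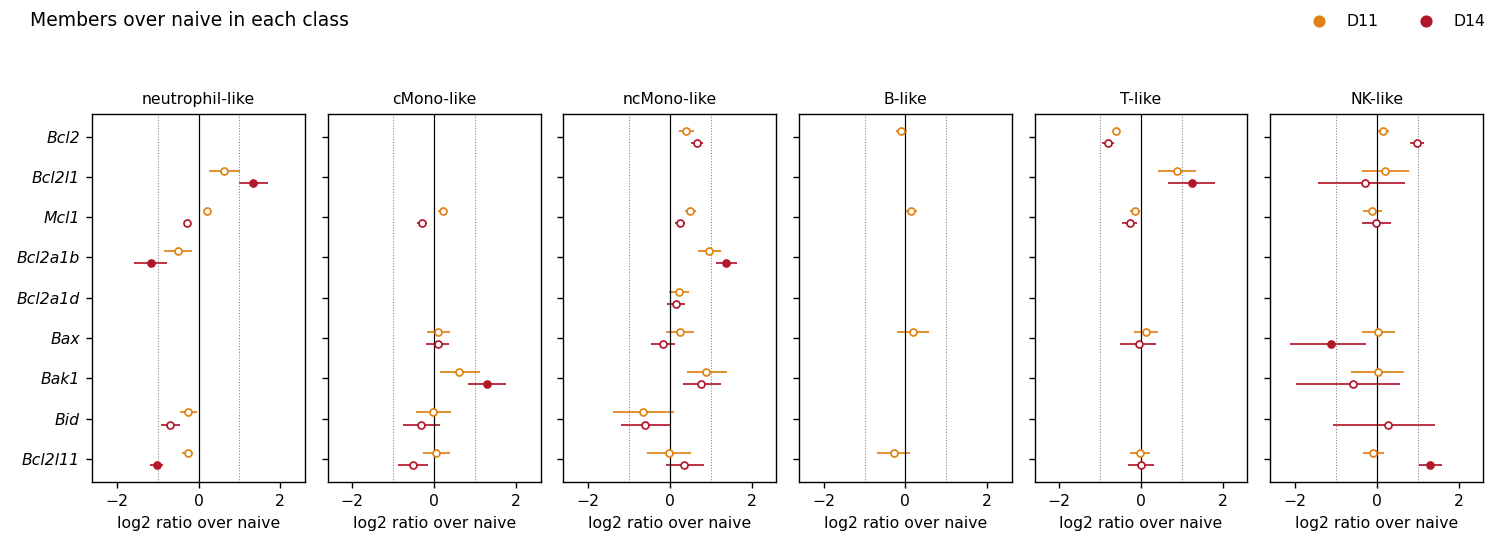
log2 ratio of CPM over the naive library (horizontal axis) for each member (vertical axis) past the minimum level, at D11 and D14, in 6 classes, with exact 95% intervals for counting error. Filled points pass the 2-fold rule (dotted lines mark 2-fold): none at D11, and 8 at D14.

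In neutrophil-like cells 3 of 5 members past the minimum were called at D14, against 16.5% of all genes, and the median log2 ratio of the 5 was -0.69. Bcl2l1 went from 18.7 CPM in the naive library through 28.9 at D11 to 47.4, a log2 ratio of 1.34 [0.99 to 1.71]. Bcl2a1b went down through 22.9 to 14.4 CPM, a ratio of -1.17 [-1.57 to -0.78]. Bcl2l11 fell from 178 through 147 to 87.5 CPM, a ratio of -1.02 [-1.18 to -0.86]. The 3 A1 copies summed to 52.0, 33.4 and 19.4 CPM, a ratio of -1.42 [-1.76 to -1.10] at D14.

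For these neutrophil ratios the scale matters, since the median gene of the class was at -0.13 in D11 and -0.22 in D14. With TMM factors Bcl2a1b (-0.93) and Bcl2l11 (-0.78) lost their calls, while Bcl2l1 kept its call at 1.58. Hemoglobin in this class was 842 CPM in the naive library, 5196 in D11 and 2584 in D14. At the ratio of Bcl2l1 to hemoglobin in erythroid-like cells, that hemoglobin would bring 0.113, 0.579 and 0.288 CPM of Bcl2l1, beside the 18.7, 28.9 and 47.4 measured. Pro-B-like cells held 46.7 and 45.7 CPM of Bcl2l1 at D11 and D14. The 8 markers of that class summed to 11.0, 22.1 and 117 CPM in neutrophil-like cells. The part of red cell or pro-B RNA in the Bcl2l1 values was not tested.

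The make-up of neutrophil-like cells differed between libraries. Those with at least 3 of 4 immature markers (Ltf, Camp, Ngp and Cebpe, genes of secondary granules and their regulator) numbered 14 of 1299 in the naive library, 118 of 1582 at D11 and 271 of 1277 at D14. Within a library, immature cells had 761 CPM of Mcl1 against 1903 in other neutrophil-like cells at D11, and 758 against 1541 at D14. The log2 ratios were -1.32 [-1.43 to -1.21] and -1.02 [-1.11 to -0.94]. Bcl2l11 was lower in immature cells as well, by -1.04 [-1.41 to -0.70] in D11 and -0.60 [-0.89 to -0.31] in D14. Called in this contrast were 2 of 4 members at D11, against 24.6% of all genes, and 1 of 5 at D14, against 17.0%.

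Among neutrophil-like cells with at most 1 immature marker, a comparison added after the data had been seen, only Bcl2l1 was called at D14, 1 of 5 members against 11.2% of all genes, and 0 of 5 were called at D11, against 1.70%. Bcl2l1 was there at 17.8, 26.7 and 55.9 CPM, and D14 over naive gave a log2 ratio of 1.65 [1.25 to 2.05]. Mcl1 was level between naive and D14 (1489.8 and 1541 CPM). Bcl2a1b gave -0.57 [-1.01 to -0.14] and Bcl2l11 -0.82 [-1.02 to -0.63] and neither was called.

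**Figure D5:**
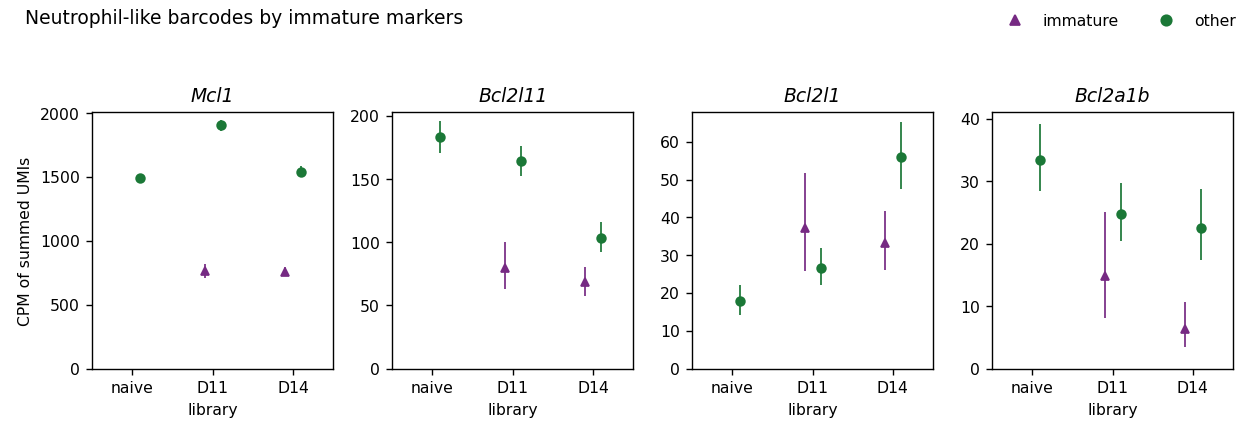
CPM of summed UMIs (vertical axis, linear from 0) of 4 members in immature and other neutrophil-like cells by library (horizontal axis), with exact 95% Poisson intervals. Immature cells of the naive library, 14 barcodes, are not shown. Mcl1 is lower in immature cells in both libraries, and Bcl2l1 in other cells goes from 17.8 to 55.9 CPM.

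Beyond the members, 2 of 6 pathway genes past the minimum were called in neutrophil-like cells at D14, against 16.5% of all genes. Pmaip1 fell from 127 CPM in the naive library and 108 at D11 to 35.5 at D14 (log2 ratio -1.84 [-2.07 to -1.61]). Bnip3, a mitochondrial BH3-like gene known for mitophagy, went from 50.9 and 36.8 to 16.7 CPM (-1.61 [-1.97 to -1.27]). Both were also called in neutrophil-like cells with at most 1 immature marker, at -1.33 and -1.15, where 11.2% of all genes were.

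In ncMono-like cells 1 of 8 members was called at D14, against 5.58% of all genes. Bcl2a1b reached 319 CPM, 2.59-fold [2.18 to 3.10] the naive level. Its neighbour Bcl2a1d was at 1.10-fold [0.950 to 1.28]. The third copy, Bcl2a1a, stood at 96.3, 174 and 231 CPM and was the 1 pathway gene called of 12 (log2 ratio 1.26 [0.98 to 1.56]). Bcl2a1b and Bcl2a1a were thus both called, and Bcl2a1d, with an interval that includes 1, was not.

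Summed, the 3 copies went from 400.4 CPM through 624 to 749.8, which for D14 is a log2 ratio of 0.91 [0.77 to 1.05]. Their make-up shifted: Bcl2a1b took 30.7% of the sum in the naive library, 38.4% in D11 and 42.5% in D14, and Bcl2a1d 45.2%, 33.7% and 26.6%. Bcl2 and Bak1 were higher too, by 1.58-fold [1.42 to 1.76] and 1.70-fold [1.26 to 2.36], without reaching 2-fold. The 8 pro-B markers summed to 3.57, 5.40 and 47.5 CPM in this class and the hemoglobin genes to 165, 2515 and 3832, and their part in these values was not tested.

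In cMono-like cells 1 of 5 members was called at D14, against 8.83% of all genes. Bak1 went from 29.6 CPM through 45.2 to 72.1, which is 2.44-fold [1.78 to 3.40]. The other effector, Bax, was 1.06-fold [0.877 to 1.29] the naive level. Bcl2 was under the minimum level. Hemoglobin in this class was 2409.9 CPM in the naive library, 2162 in D11 and 7975 in D14, and the 8 ncMono markers summed to 265, 349.6 and 437 CPM. The part of these and of depth in the Bak1 values was not tested.

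In T-like cells 1 of 5 members was called at D14, against 6.66% of all genes, while Bcl2 itself moved down without a call. Bcl2l1 went from 14.3 CPM through 26.4 to 33.9, which is 2.37-fold [1.57 to 3.47] and rests on 32 UMIs at D14. Hemoglobin in T-like cells would bring 0.170, 0.446 and 0.503 CPM of Bcl2l1 at the erythroid ratio, and its part in the value was not tested. With TMM factors the log2 ratio was 1.08 and the mean fell under 20 CPM, which ended the call. Bcl2 was 0.571-fold [0.520 to 0.626] the naive level. Bcl2a1b was below the minimum level and is given as a description, at 4.09-fold [2.55 to 6.38]. The 3 A1 copies summed to 9.32, 31.4 and 35.0 CPM, a log2 ratio of 1.91 [1.30 to 2.48] for D14. The 8 ncMono markers, which mark the class richest in Bcl2a1b, summed to 204, 280 and 276 CPM in T-like cells and the 8 neutrophil markers to 55.9, 36.4 and 143, and their part in this value was not tested.

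Bcl2 was also read in CD4 and CD8 cells. CD4 T-like cells held 868 CPM in the naive library, 623 in D11 and 483 in D14, and CD8 T-like cells 885 and 705 in the naive and D11 libraries, while CD8 cells at D14, 33 barcodes, were not compared. No member was called between CD4 and CD8 cells, 0 of 4 in the naive library against 3.43% of all genes and 0 of 6 at D11 against 7.12%. Within CD4 cells, added after the data had been seen, 2 of 6 members were called at D14 against 10.9% of all genes. These were Bcl2l1 at 11.3 and 43.0 CPM (log2 ratio 1.92 [1.16 to 2.63]) and Bak1, at 32.7 CPM by D14 with 92 UMIs in the naive sum and 16 in that of D14 (1.33 [0.46 to 2.11]), from 51 cells at D14.

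In NK-like cells 2 of 7 members were called at D14, against 5.39% of all genes. Bcl2l11 went from 182 CPM through 172 to 453, which is 2.49-fold [2.03 to 3.03]. Bax went from 76.6 through 78.4 to 35.3 CPM, 0.461-fold [0.232 to 0.835], and the D14 value rests on 12 UMIs. The 8 T markers summed to 338, 247 and 191 CPM in NK-like cells, and their part in these values was not tested. Bcl2 was 1.98-fold [1.76 to 2.21], just under the limit. The D14 class held 51 barcodes, and it fell under 50 with stricter barcode filters or a stricter gate, where these values could not be computed.

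The pro-B-like cells, the type of the engrafted line by markers, had an anti-apoptotic profile unlike that of the B-like cells beside them at D11. At least 3 of 6 mitotic markers were found in 82 of the 98 pro-B-like barcodes. Their median was 30985.5 UMIs, against 5291 in B-like cells. The part of cycling and depth in this contrast was not tested. Bcl2 was at 42.6 CPM in pro-B-like cells against 449 in B-like cells, a fold of 0.0949 [0.0784 to 0.114], and Mcl1 at 157 against 416 (0.377 [0.335 to 0.424]). Higher in pro-B-like cells were Bcl2l1 (3.49-fold [2.20 to 5.81]), Bax (2.22-fold [1.77 to 2.81]) and Bak1 (3.79-fold [2.24 to 6.83]). Bcl2a1b had no UMI in pro-B-like cells against 28 in B-like cells. With a floor of 3 counts in place of 0 its fold was 0.0528, which is not an upper limit. These 5 called members of 7 stand against 48.6% of all genes called in this contrast, so that a large share of genes in general also differed between these classes.

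Among 9 pathway genes past the minimum in that contrast, 6 were higher in pro-B-like cells and 1 lower, against 48.6% of all genes called. The widest were Htra2 at 58.6 CPM against 13.4 and Cycs, which encodes cytochrome c, at 213 against 49.6.

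From D11 to D14 the pro-B-like cells had 0 of 7 members called against 2.18% of all genes. Bcl2l11 was 1.43-fold [1.23 to 1.68] and Bax 0.732-fold [0.659 to 0.815]. Cycling pro-B-like cells at D14 (at least 3 of 6 mitotic markers) did not differ by 2-fold from those with none in any of 7 members, against 5.97% of all genes, and Mcl1 was 0.767-fold [0.689 to 0.856] in cycling cells.

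Across the 22 sums of a class and a library, the genes whose log2 levels ran closest to each member were listed among 6895 genes, as a description of sums that share libraries. For Bcl2 they were Mllt6 (Pearson r = 0.971), Agpat3 and Rasgrp1, and for Mcl1 Rgs19 (0.986), Tiparp and Rab5b. Bcl2l1 ran closest to Ncoa4 (0.801), Fbxo9 and Cdr2, Bcl2a1b to Cd274 (0.865), Abcg3 and Arrb1, and Bcl2a1d to Pparg (0.926), the gate marker Eno3 and Havcr2. Bax was nearest Eif2s2 (0.985), Vdac3 and Rabl6, and Bak1 nearest Trappc1 (0.965), Tpi1 and Ssr3. Bid was nearest Ppt1 (0.977), Haus2 and Vcl, and Bcl2l11 nearest Camk2g (0.966), Atp11b and Pik3r1. Among the members themselves the closest pairs were Bax with Bak1 (0.904), Mcl1 with Bid (0.900) and Bcl2a1b with Bcl2a1d (0.878). The 22 sums include erythroid-like cells, in which hemoglobin took 89.4% to 91.3% of UMIs. Every member but Bcl2l1 was there at 14.1 CPM or less. The part of the erythroid-like sums in these r values was not tested, so they do not describe leukocytes alone.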

How the data were processed

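PB samples of 1 naive, 1 D11 and 1 D14 library were prepared by the authors with 10x Genomics 3′ v3 reagents, and they deposited filtered matrices of raw UMI counts per gene and barcode, without normalization. The file headers name Cell Ranger 5.0.1 and the submitters' notes Cell Ranger 7.1.0 with mm10. Whether intronic reads were counted is not given in the sources used here, and the reference genome is not of the Balb/C strain. Matrices held 30362408, 57640396 and 65861863 UMIs in naive, D11 and D14.

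A barcode was kept where it had 200 genes or more and mitochondrial UMIs made up no more than 10% (3811, 4567 and 4414 were kept). A barcode joined the class with most of its 8 markers found, if at least 3 were found, at least 2 more than for any other class, and hemoglobin was at most 20% of UMIs. Pro-B-like barcodes also needed a UMI of at least 1 of 4 B lineage genes, and erythroid-like ones at least 50% hemoglobin with fewer than 3 markers of every other class. No member is a marker, and 7.71% to 11.6% of kept barcodes stayed in no class. Doublets stayed in, and the barcodes with the highest Scrublet scores (116, 167 and 156) were left out as an alternative. Platelet-like barcodes (6, 1 and 16) were not compared.

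UMIs were summed per class and library with at least 50 barcodes and scaled to CPM. Ratios have exact conditional binomial, levels exact Poisson and shares Clopper-Pearson 95% intervals (scipy 1.17.1), which cover counting error only. A change was called at 2-fold, a mean of 20 CPM and an interval excluding 1. A count of 0 was given a floor of 3 UMIs. The count models of edgeR 4.0.16 were not used, since there is 1 library per condition, and its TMM factors were an alternative scaling. Scripts were tested on simulated sums and cells. All 9 members were named, with for each the 3 genes most correlated in log2(CPM + 1) among symbols that name 1 identifier, and of 21 other pathway genes at most 3 per class past 2-fold, some of which are not reported here. Members, lists and markers were chosen with earlier results of these data known. Positions are from GENCODE vM21 and promoters from RefSeq.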

Additional observations from a re-analysis of the deposited data

Results flagged for a closer look

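For 3 members the D14 libraries moved in opposite directions in a pair of classes, by at least 0.8 on the log2 scale each way against the naive library. The log2 ratio of Bcl2 was 0.98 in NK-like and -0.81 in T-like cells. That of Bcl2a1b was 1.37 in ncMono-like and -1.17 in neutrophil-like cells, and that of Bcl2l11 was 1.31 in NK-like and -1.02 in neutrophil-like cells. With 1 library per condition these differences were not tested.

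Kept barcodes that joined no class, 294, 493 and 510 in the naive, D11 and D14 libraries, held 17.9 CPM [12.7 to 24.5] of Bcl2l1 in the naive library, 35.9 in D11 and 44.5 in D14. Hemoglobin took 7.01%, 28.7% and 8.08% of the UMIs of these barcodes, and its part in the values was not tested.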

How the results depend on the processing

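No paired analysis was possible because each condition has 1 library, and for the same reason no replicate could be left out. Of 8 calls at D14, 2 held in all 11 alternatives, Bak1 in cMono-like and Bcl2a1b in ncMono-like cells. The sum of the 3 A1 copies was not among the alternatives. In ncMono-like cells at D14 that sum was under 2-fold, at a log2 ratio of 0.91 [0.77 to 1.05]. Bcl2l1 in neutrophil-like cells was lost with a minimum of 50 CPM, and Bcl2l1 in T-like cells with that minimum and with TMM factors (1.08, its mean then under 20 CPM). In NK-like cells neither Bax nor Bcl2l11 had a value with stricter barcode filters or at least 4 markers, since too few barcodes remained. In neutrophil-like cells Bcl2a1b was lost with TMM factors (-0.93), with the mean of per-cell CPM (-0.81) and with a minimum of 50 CPM, and Bcl2l11 with TMM factors (-0.78), per-cell means (-0.65), and gates of at least 4 or 2 markers (-0.97 each). The count of higher calls at D11, 0 as reported, was 1 without Scrublet doublets, 1 with at least 4 markers and 3 with TMM factors. It was 2 with per-cell means and 2 with no minimum, and the count of lower calls was 1 with at least 4 markers. Bcl2a1b in ncMono-like cells was among the higher calls at D11 in each of these alternatives except that with no minimum. At D14 the 5 higher calls became 3 with a minimum of 50 CPM and 8 with no minimum. The 3 lower calls became 1 with at least 4 markers, 1 with TMM factors, 1 with per-cell means, 5 with no minimum and 1 without immature neutrophil-like barcodes, an alternative chosen after seeing the data. Beyond what an alternative's own construction shows, the cause was not tested. Of 569 values of 65 log2 ratios, 552 stayed within the reported interval and 17 did not. No called ratio changed sign, and 22 values of ratios not called did. Depth limits NK-like cells at D14 most, where the exact Poisson interval of a count of 0, that of Bcl2a1d, reaches 10.9 CPM.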
